A study of Mus musculus with 6 samples.

Results

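Leptin, adiponectin, resistin and other signalling proteins of fat were followed in abdominal adipose tissue of obese mice after a duodenal-jejunal bypass (DJB). The 10 genes were Lep, Adipoq, Retn, Rbp4, Cfd, Rarres2, Apln and Itln1, which encode secreted proteins, and Lepr and Adipor2, which encode receptors. Their members on the array were the 15 probes, other than controls, that carry one of these symbols as gene name, of 150305 probes in all. A further 10 probes carry a RefSeq accession of the same genes in place of the symbol. They were added after the files had been seen, as a second measurement of each gene, and are counted apart.

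RNA was hybridised to 1-colour Agilent arrays, with n = 3 arrays per group. All mice were C57BL/6; a high-fat diet began at an age of 6 weeks and lasted 12 weeks before they were randomised to surgery. The DJB group received a bypass with a biliopancreatic limb of 5 cm and a Roux limb of 4 cm, with buprenorphine named at the operation. The Sham group had the same incision and the same cuts through the gut, which were sewn up again in place. No lean or unoperated group enters the comparison. The labels give neither the fat depot, nor the time after surgery, nor whether each array stands for its own animal. The p-values therefore reflect only how these samples vary, which may be technical.

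Adipokines are proteins that fat releases into the blood. Leptin reports the size of the fat stores to the brain through its receptor and lowers food intake. Adiponectin acts through its receptors on liver and muscle to raise fatty acid oxidation and insulin sensitivity, and in obesity its blood level is low although fat is abundant. Resistin, in mice a product of adipocytes, and retinol-binding protein 4, the carrier of vitamin A in blood, both lower insulin sensitivity when they are given to mice in excess.

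The probes that carry the result for resistin are shown first, because the gene has a pair of symbol-named probes that overlap. The capitals mark the 22 bases they share, and the array design places both on chromosome 8 of mm9, at chr8:3656107-3656928 and chr8:3656145-3656966, each spread over 822 bases on the plus strand. A 60-base probe that spans that length crosses an intron, so it reads spliced RNA.
Retn A_52_P55972: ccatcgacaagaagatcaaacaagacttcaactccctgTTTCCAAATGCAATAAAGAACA
Retn A_51_P233597: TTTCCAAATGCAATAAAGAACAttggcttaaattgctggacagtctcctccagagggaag
The leptin probes do not overlap, and 30 bases from the middle of each are given to show that they are separate measurements of the same transcript. The first lies on chromosome 6 of mm9, plus strand, at chr6:29023234-29023293, and the second is not placed by the files.
Lep A_52_P374882: ttttctgttaagagatggttagcttatacc
Lep CUST_69907_PI435794180: gattgtgaaacttcccatatgcaaaaatgc
The Rbp4 probes, by contrast, share 44 bases, of which the first 30 are given, so the second is hardly independent of the first. The symbol-named probe lies at chr19:38191129-38191188 of mm9, minus strand.
Rbp4 A_51_P374752: aagatgtttgaggcttgggattccaaactt
Adiponectin has a symbol-named probe at chr16:23157576-23157635 of mm9, plus strand, and its accession-named probe shares no run of more than 5 bases with it.
Adipoq A_51_P458451: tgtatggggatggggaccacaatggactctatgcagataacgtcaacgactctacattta

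Every tested adipokine probe had a lower mean in DJB than in Sham tissue, but the falls differed widely in size and few passed the test. Levels are log2 of the processed signal relative to the 75th percentile of the array, and differences are DJB minus Sham. A probe was tested with limma if at least 3 of the 6 arrays showed it well above background, and called at an adjusted p of at most 0.05 over all 99431 probes tested. Of the 15 symbol-named probes 14 were tested. Of these 3 were called lower, the pair for Retn and the probe for Rbp4, and 0 were called higher, against 3.15% of all tested probes called lower and 1.84% called higher. At an unadjusted p under 0.05, 9 of the 14 were lower, against 12.6% of all tested probes. On 10 of the 14 every DJB array lay below every Sham array, against 14.2% of all tested probes. The differences ran from -3.02 to -0.35 with a median of -0.82, beside a median of 0.08 over all tested probes. Taking each named gene by its brightest tested probe, 6.02% of 17825 genes were called lower and 1.45% higher. Of the accession-named probes 9 of 10 were tested, and 3 were called lower, for Lep, Retn and Rbp4, with 0 called higher and a median of -1.16. With the slide as a block, 0 probes of either kind passed, while 0.623% of all tested probes were still called lower. By that test, 0.0513 was the lowest adjusted p among the members, for Rbp4.

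**Figure D1:**
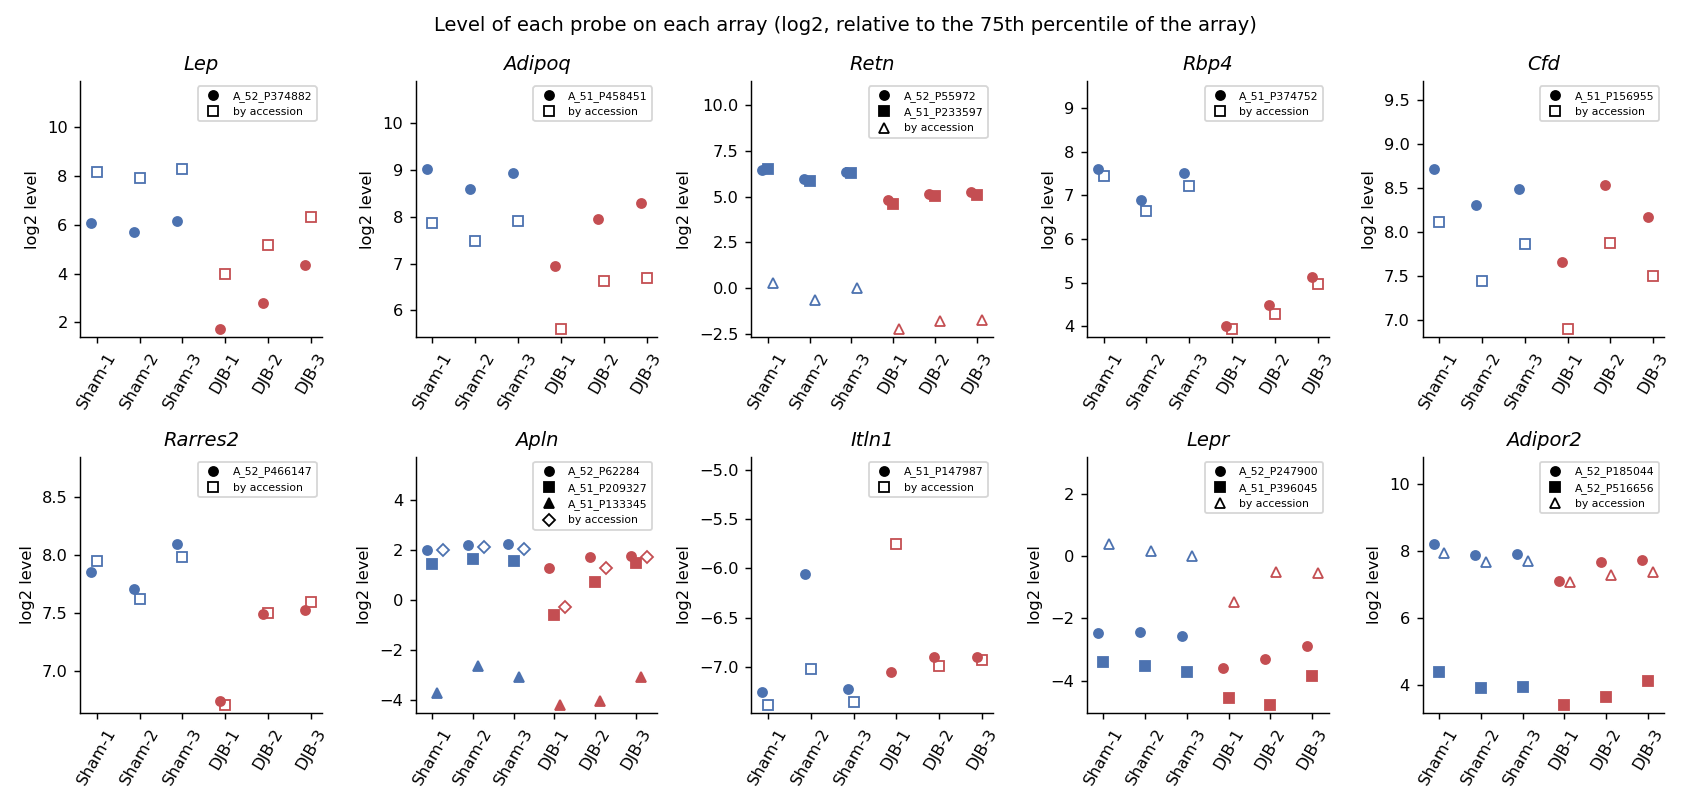
Level of each of the 25 probes on each of the 6 arrays, as log2 relative to the 75th percentile of the array, with 1 panel per gene, Sham arrays in blue and DJB arrays in red. Filled symbols are symbol-named probes and open symbols accession-named ones; heights are compared between arrays, not between probes. The DJB levels of Lep, Adipoq, Retn, Rbp4, Rarres2 and Lepr lie below all Sham levels on every probe, and both Itln1 probes stay at background.

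Leptin had the largest difference of the tested member probes, and also the widest spread among DJB arrays. On its symbol-named probe the log2 levels of Lep were 6.07, 5.71 and 6.17 on the Sham arrays. On the DJB arrays they were 1.72, 2.79 and 4.37. The groups did not overlap, and the gap of 1.34 between the lowest Sham and the highest DJB array was larger than the whole Sham range of 0.46 but smaller than the DJB range of 2.65. The mean difference was -3.02 (SE 0.63, 95% interval -4.56 to -1.49), an 8.14-fold lower level, and its adjusted p of 0.0511 missed the threshold.

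The accession-named Lep probe gave a difference of nearly the same size with a smaller error. Its levels were 8.16, 7.90 and 8.30 in Sham and 3.99, 5.18 and 6.32 in DJB, in the same order of arrays. Measured by this probe Lep fell by 2.96 in log2 (SE 0.55, adjusted p = 0.0435), or 7.79-fold. The call for leptin thus depends on the probe, and on the second it was kept without DJB-3 (adjusted p = 0.0254) and lost without any other single array (0.0573 to 0.151). On both probes DJB-1 was the lowest and DJB-3 the highest of the DJB arrays. The adjusted p with the slide as a block was 0.0731 for the first probe and 0.0675 for the second.

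Retinol-binding protein 4 fell almost as far as leptin, with far less spread among DJB arrays. Its log2 levels were 7.62, 6.89 and 7.52 in Sham and 4.01, 4.49 and 5.13 in DJB. The groups did not overlap, with a gap of 1.76 against ranges of 0.73 in Sham and 1.12 in DJB. Rbp4 fell by 2.80 in log2 (SE 0.33, adjusted p = 0.0225), which is 6.96-fold. The overlapping accession-named probe, listed for another Rbp4 transcript, fell by 2.71 (SE 0.32, adjusted p = 0.0226). The call of the first probe was lost without Sham-1, Sham-2 or DJB-2 (adjusted p = 0.106, 0.0553 and 0.0852) and kept without any other single array. Liver is the main source of circulating Rbp4, and some hepatocyte markers were lower in the same tissue. Of 15 tested 4 were called lower, against 6.02% of all named genes. They were Alb, the serum albumin gene (-2.89), Serpina1a (-2.44), Serpina3k (-2.07) and Hpx (-1.07). Another 5 had a higher mean in DJB and were not called, from Tat at 0.04 to Apoa1 at 1.62. The median of the list was -0.75, and -0.23 with normexp background correction. Their summed level, relative to the 75th percentile and largely that of Cyp2e1 and Serpina3k, was 92.8 to 189 in Sham and 23.4 to 65.5 in DJB. Their part in the result for Rbp4 was not tested.

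Resistin fell on every probe that measures it. On probe A_52_P55972 the log2 levels of Retn were 6.47, 5.95 and 6.37 in Sham and 4.80, 5.15 and 5.24 in DJB. The groups did not overlap, and in contrast to leptin the DJB arrays varied no more than the Sham arrays, with ranges of 0.44 and 0.52. Retn fell by 1.20 (SE 0.19, adjusted p = 0.0348), or 2.30-fold. Probe A_51_P233597, which shares the bases shown above in capitals, fell by 1.33 (SE 0.22, adjusted p = 0.0378). The accession-named probe has no run of more than 5 bases in common with either, and it fell by 1.80 (SE 0.27, adjusted p = 0.0322), or 3.48-fold, with a difference of -1.07 after normexp background correction. Without DJB-3 the first probe kept its call (adjusted p = 0.0466), and without any other single array it lost it (0.0663 to 0.133). The second lost it whichever array was left out (0.0521 to 0.135).

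Adiponectin showed a smaller difference that did not pass the test. Its log2 levels were 9.03, 8.59 and 8.94 in Sham and 6.96, 7.94 and 8.30 in DJB. The groups did not overlap, but DJB-1 stood well below the other DJB arrays and DJB-3 came within 0.29 of the lowest Sham array. The difference for Adipoq was -1.12 (SE 0.35, 95% interval -1.97 to -0.27, adjusted p = 0.108). The accession-named probe gave -1.45 (SE 0.32, adjusted p = 0.0557). Without DJB-1 the first probe differed by -0.73.

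Adipsin, chemerin and apelin differed less. Cfd encodes adipsin, the complement factor D that starts the alternative pathway, and its levels of 8.72, 8.31 and 8.49 in Sham overlapped those of 7.66, 8.54 and 8.18 in DJB. The difference was -0.38 (SE 0.24, 95% interval -0.97 to 0.21, adjusted p = 0.348). Rarres2 encodes chemerin, which attracts immune cells and acts on adipocyte differentiation, and its levels were 7.85, 7.70 and 8.09 in Sham and 6.74, 7.49 and 7.53 in DJB. The Rarres2 groups did not overlap, with only DJB-1 far below the rest, and the difference of -0.63 (SE 0.24, adjusted p = 0.159) was not called. Apln encodes apelin, a peptide hormone that adipocytes release in response to insulin. Its 3 symbol-named probes gave differences of -0.54, -1.03 and -0.63, with adjusted p-values of 0.102, 0.234 and 0.336. The first of them did not overlap between groups, and the other 2 did. The accession-named Apln probe gave -1.16 (adjusted p = 0.184). Leaving out DJB-1 moved several of these values by over 1.5 times. Without it the difference was -0.15 for Cfd and -0.37 for Rarres2, and it was -0.46 for Apln probe A_51_P209327 and -0.57 for the accession-named one. Normexp background correction left -0.002 on the dimmest Apln probe, A_51_P133345.

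Intelectin was not measurable. The probes for Itln1, whose human counterpart ITLN1 makes omentin in visceral fat, were not well above background on any of the 6 arrays and were not tested, so only a bound holds there. The symbol-named one is shown so that it can be set against the sequence of other designs. It is annotated to chromosome 1 of mm9.
Itln1 A_51_P147987: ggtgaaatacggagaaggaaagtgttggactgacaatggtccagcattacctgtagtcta

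The receptor genes were lower in mean as well, and none of their 6 probes was called. The Lepr probe A_52_P247900, listed for the transcript NM_001122899, had levels of -2.47, -2.43 and -2.55 in Sham and -3.60, -3.30 and -2.88 in DJB. The groups did not overlap, and the difference was -0.78 (SE 0.19, adjusted p = 0.0702). The Lepr probe A_51_P396045, listed for both NM_010704 and NM_146146, gave -0.85 (SE 0.25, adjusted p = 0.0963) and was above background on 2 of the 3 DJB arrays. The third probe, listed for NM_001122899, gave -1.03 (SE 0.28, adjusted p = 0.0835). With normexp background correction the 3 differences were -0.12, 0.04 and -0.71, so their size depends on how the background is removed from these dim probes. Probe A_51_P396045 also spans an intron, over 1502 bases of chromosome 4 in mm9.
Lepr A_51_P396045: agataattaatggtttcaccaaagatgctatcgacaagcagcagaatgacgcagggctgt
Adipor2, the adiponectin receptor best known from liver, had levels of 8.20, 7.87 and 7.91 in Sham and 7.11, 7.66 and 7.74 in DJB on its brighter probe. The difference was -0.49 (SE 0.20, adjusted p = 0.178), with no overlap. The other symbol-named probe gave -0.35 (SE 0.23, adjusted p = 0.367) with overlapping groups. The accession-named probe gave -0.52 (SE 0.14, adjusted p = 0.0778). Without DJB-1 the brighter symbol-named probe differed by -0.29.

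**Figure D2:**
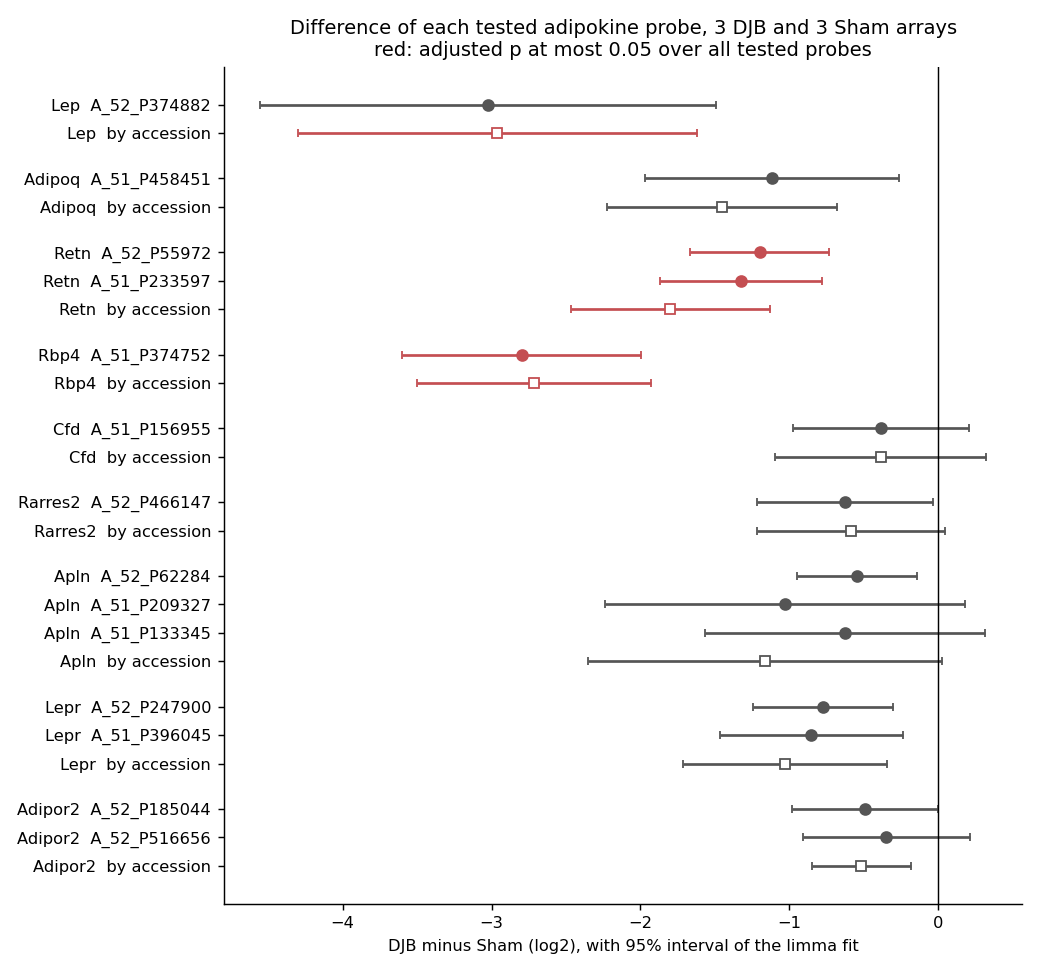
Difference DJB minus Sham of each of the 23 tested probes on the log2 scale, with the 95% interval of the limma fit. Circles are symbol-named probes, open squares accession-named ones, and red marks an adjusted p of at most 0.05. The 6 red probes belong to Lep, Retn and Rbp4, and every point lies left of 0.

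The arrays within a group did not vary alike. On 13 of the 14 tested symbol-named probes DJB-1 was the lowest of the DJB arrays, and on 13 of them DJB-3 was the highest. Over all tested probes these shares were 31.0% and 29.5%. The spread among DJB arrays exceeded that among Sham arrays on 12 of the 14, against 64.0% of all tested probes. The arrays lay on 2 slides, the first with Sham-1, Sham-3, DJB-1 and DJB-2 and the second with Sham-2 and DJB-3. On all 14 probes the difference was higher, that is nearer to 0 or above it, on the second slide, as it was higher on 44748 of all 99404 tested probes without a missing spot. Lep differed by -3.86 within slide 1 and by -1.34 within slide 2, and Rbp4 by -3.32 and -1.76. The lead Retn probe differed by -1.45 and -0.71 in the same way, and Adipoq by -1.54 and -0.29. Slide 2 holds 1 array of each group, so a difference between slides and a difference between these 2 arrays cannot be told apart.

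**Figure D3:**
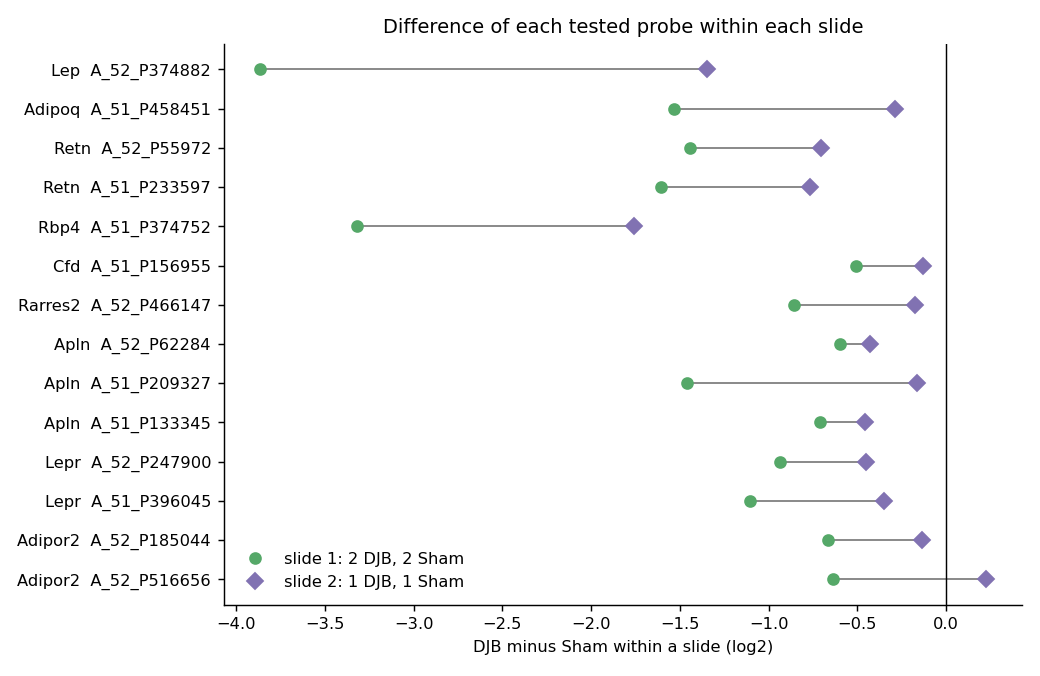
Difference DJB minus Sham of the 14 tested symbol-named probes within slide 1 (circles, 2 arrays of each group) and within slide 2 (diamonds, 1 array of each group), on the log2 scale. All 14 differences are below 0 on slide 1 and 13 on slide 2, where that of Adipor2 probe A_52_P516656 lies at 0.22. Each of the 14 is higher on slide 2 than on slide 1.

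Leptin and adiponectin are both made by adipocytes, and their ratio within an array is not changed by a factor that scales the whole array. Lep minus Adipoq was -2.96, -2.88 and -2.77 in Sham and -5.24, -5.15 and -3.93 in DJB. The groups did not overlap. The ratio was 3.75-fold lower in DJB, a log2 difference of -1.91, with a two-sided exact permutation p of 0.1, the smallest that 3 against 3 arrays can give. With the accession-named probes the difference was -1.51, again without overlap. It was -2.33 within slide 1 and -1.06 within slide 2.

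Markers of adipocytes themselves were mostly lower in DJB. In a bulk sample, fewer cells of a type and less RNA per cell cannot be told apart. Of 16 adipocyte markers, which hold none of the 10 genes, 14 had a lower mean. Among them 1 was called, against 6.02% of all named genes called lower. It was Cav1, which encodes a caveolin and fell by 1.64 (adjusted p = 0.0402). The number of these markers called lower became 7 with normexp background correction, 2 with quantile scaling and 0 without the filter on dim probes. Over all probes these settings called 4899, 2868 and 576 lower, against 3137 in the main fit. The median difference of the 16 markers was -1.13, and their summed level was 5014 to 5778 in Sham and 2756 to 4426 in DJB. Single markers ranged from -1.92 for Slc2a4 to 0.42 for Cd36. How much of each marker came from other cells of the tissue was not tested. Fabp4, the fatty acid carrier of adipocytes, differed by 0.08 and Lpl, the lipoprotein lipase, by -0.08, and neither was called. Cd36 went the other way, with a difference of 0.42 (SE 0.11, adjusted p = 0.0775). Every DJB array lay above every Sham array for Cd36, and it was not called.

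Set against the mean log2 level of these 16 markers on the same array, the members differed in sign. This scaling was added after the data had been seen, and it used the brightest symbol-named probe of each gene. Relative Lep levels were -1.73, -1.68 and -1.55 in Sham and -4.28, -4.11 and -2.68 in DJB, a difference of -2.04. Relative Rbp4 differed by -1.81, also without overlap. For Adipoq the difference shrank to -0.13 and for Retn to -0.22, and in both the groups overlapped. The accession-named probes of these genes were not set against the markers. Unscaled, they differed by -1.45 for Adipoq and -1.80 for Retn, beside -0.98 for the marker mean, so these 2 results hold for the symbol-named probes only. Cfd turned to 0.60, Adipor2 to 0.49 and Rarres2 to 0.36, each with every DJB array above every Sham array. Apln turned to 0.44 and Lepr, on its dim probe A_52_P247900, to 0.21, with overlapping groups in both. The brighter accession-named Lepr probe was not scaled in this way, and its unscaled difference of -1.03 was close to that of the marker mean. The exact permutation p was 0.1, the smallest possible, for the 5 genes without overlap. It was 0.4 for Adipoq and Retn, 0.3 for Apln and 0.5 for Lepr.

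**Figure D4:**
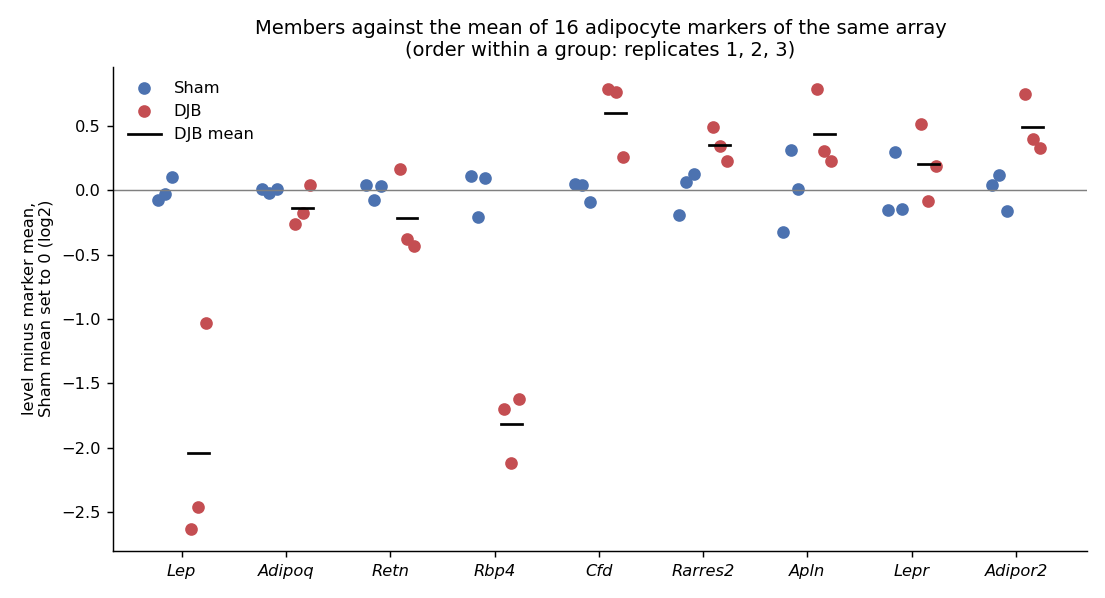
Level of the brightest symbol-named probe of each tested gene minus the mean of 16 adipocyte markers on the same array, with the Sham mean of each gene set to 0 (log2 scale, 1 point per array, 3 arrays per group, black bar for the DJB mean). Lep and Rbp4 lie below all Sham arrays, Adipoq and Retn near 0, and Cfd, Rarres2 and Adipor2 above all Sham arrays. Apln and Lepr have DJB means above 0, with overlapping groups.

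Marker levels of other cell types differed as well. Beside the counts that follow, 6.02% of all named genes were called lower and 1.45% higher. All 11 tested mesothelial markers had lower means and 2 were called, with a summed level of 189 to 258 in Sham and 40.7 to 105 in DJB. Skeletal muscle markers were called lower in 5 of 8 tested, while Ckm, Myh1 and Tnnt3 had higher means (0.28, 0.20 and 0.31). The median of the muscle list was -1.55, and -0.62 with normexp background correction. Its summed level, in Sham largely that of Acta1, was 33.5 to 91.4 in Sham and 4.84 to 7.84 in DJB. Of 10 macrophage markers 2 were called higher, Itgam and Gpnmb, and the summed level was 1903 to 2454 in Sham and 2991 to 3572 in DJB. Cd163 alone among them had a lower mean, by -0.56 (adjusted p = 0.251). Of 10 endothelial markers 1 was called lower, and their sum was 368 to 419 in Sham and 191 to 324 in DJB. Neutrophil markers had 1 of 8 called higher, S100a9, with 0 called lower and a median of 0.91. S100a8 and Ltf had lower means, by -0.26 and -0.01. Of the intestinal epithelial, fibroblast, pancreatic acinar and B cell markers, 9, 9, 7 and 5 were tested and 0 called, with median differences of -0.43, 0.18, -0.67 and -1.96. Some epithelial genes differed widely among the Sham arrays. On Sham-1, Sham-2 and Sham-3 Epcam was at 2.98, 2.12 and -3.16, Vil1 at 2.72, 1.82 and -1.72, and Krt8 of the mesothelial list at 5.84, 5.27 and 2.69. Lgals4, at 4.36, 4.30 and 4.22, did not. The cause of this spread was not tested. Of the markers in the lists named here and above, Fga, Myh4 and Cdx2 were on the array but not tested, and no feature matched Muc16. The part of these cells in the adipokine results was not tested.

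Genes on both sides of the adipokines were then read from lists of their pathways. Over all named genes 6.02% were called lower and 1.45% higher, the shares to set beside the calls of every list below. Whether a list held more calls than these shares was not tested. Among 11 receptors and binding partners 1 was called, Cdh13, which encodes T-cadherin, the anchor of adiponectin on vessel walls. Its levels were 4.18, 3.96 and 4.06 in Sham and 2.81, 3.36 and 3.21 in DJB, and it fell by 0.94 (adjusted p = 0.0414). The median of that list was 0.29, with 4 of 11 lower in mean. Adipor1, the other adiponectin receptor, differed by 0.13 (SE 0.12) and was not called, and Stra6, the membrane receptor of Rbp4, by 0.29 (adjusted p = 0.376).

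Other secreted factors held 3 calls, all lower, of 30 tested, against 6.02% of all named genes called lower. The median of the list was -0.41. Retnla, which encodes the resistin-like molecule of alternatively activated macrophages, fell by 2.53 (adjusted p = 0.0435), from 7.55, 7.16 and 8.11 in Sham to 6.05, 4.33 and 4.86 in DJB. Here DJB-1 was the highest of the DJB arrays, whereas for Lep it was the lowest. Nrg4, an adipocyte factor that acts on liver, fell by 1.83 (adjusted p = 0.0322), and C1qtnf9, a paralogue of adiponectin, by 1.15 (adjusted p = 0.0286). Retnlb was on the array but not tested.

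In the leptin signalling list of 14 genes, 1 was called in each direction. Ptpn1, the phosphatase PTP1B that dampens leptin and insulin signals, rose by 0.87 (adjusted p = 0.0492), and Irs1, the insulin receptor substrate, fell by 0.75 (adjusted p = 0.0486). Socs3, the feedback inhibitor of leptin signalling, differed by 0.90 with a wide error (SE 0.47, adjusted p = 0.261). Of 11 genes of adiponectin assembly and signalling 2 were called lower. They were Prkaa2, a catalytic subunit of the AMP-activated kinase, which fell by 1.57 (adjusted p = 0.0428), and Gstk1, the chaperone DsbA-L that helps adiponectin form multimers, which fell by 1.03 (adjusted p = 0.0466).

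The retinol list, which covers the cargo of Rbp4, had 3 of 16 tested genes called lower and a median of -0.17. Bco1, the enzyme that splits carotene into retinal, fell by 2.05 (SE 0.20, adjusted p = 0.0151), and its adjusted p was 0.0407 with the slide as a block. Its levels were -1.56, -1.99 and -2.26 in Sham and -4.12, -3.91 and -3.94 in DJB. Aldh1a1 and Aldh1a7, aldehyde dehydrogenases of which the first makes retinoic acid, fell by 1.32 and 2.63 (adjusted p = 0.0428 and 0.04995). Lrat was not tested. Among 10 complement partners of adipsin, only C5ar1, a receptor of the split product C5a on myeloid cells, was called. It rose by 1.09 (adjusted p = 0.0428), and C3, the central component, differed by -0.08. Of 11 transcription factors that act on adipokine genes 2 were called lower. Pparg, the master regulator of adipocytes, fell by 0.72 (adjusted p = 0.0376) and Srebf1, a driver of lipid synthesis, by 0.73 (adjusted p = 0.0483). Of all genes called in these pathway lists and among the adipocyte markers, Bco1 alone kept an adjusted p of at most 0.05 with the slide as a block. Median scaling moved the median of all probes from 0.08 to 0.19. It left 0 lower calls in the lists of receptors, leptin signalling and transcription factors and 1 each in the adiponectin and retinol lists. Without the filter on dim probes the retinol list kept 1 lower call and every other pathway list had 0. Over all probes that setting called 576 lower, against 3137 in the main fit. The lower call in the leptin list was also lost with quantile scaling and with the deposited log2 values.

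The genes whose levels over the 6 arrays lay closest to a member, after each gene's own mean was subtracted, were found among 17810 named genes by the root mean square distance in log2. For Adipoq these were Pdzd2 (0.05), Trarg1 (0.06), a regulator of glucose transporter traffic in adipocytes, and Prelp (0.07). For Retn they included Tcim (0.03) and Ppip5k1 (0.05). Those nearest to Lep lay farther off and included Ptchd4 at 0.26 and Topaz1 at 0.28, and those to Rbp4 were Dct (0.11), Cyp2c23 (0.13) and Slc6a13 (0.14).

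Promoter sequences were found for 9 of the 10 genes in RefSeq's annotation of GRCm38.p6; Rarres2 had no entry. The 250 bases before each start were searched on both strands for 5 motifs, and the share of all 32851 promoters of that length that hold each was counted. The TATA box, TATAAA, was found in 12.4% of them. The GC box bound by Sp1, searched as GGGCGG, was found in 32.7%. The motif bound by C/EBP factors, TTGCNNAA, was found in 9.56%. The E-box, CACGTG, was found in 6.02% and the core site of nuclear receptors, AGGTCA, in 14.0%. No motif of 1 kind overlapped another in the windows shown. C/EBP factors and Sp1 are known to act on leptin transcription, so the Lep window is shown, with the matches in capitals (chr6:29059971-29060220, plus strand). They are a GC box at 98 to 93 bases before the start and a C/EBP match at 55 to 48 bases before it.
Lep promoter: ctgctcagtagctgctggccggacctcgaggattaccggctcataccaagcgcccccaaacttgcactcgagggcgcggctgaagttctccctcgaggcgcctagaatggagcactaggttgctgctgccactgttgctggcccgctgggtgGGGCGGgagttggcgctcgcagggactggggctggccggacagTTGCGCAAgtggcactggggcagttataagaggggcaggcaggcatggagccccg
The second of 2 listed starts of Rbp4 has a TATA box, 2 GC boxes on the other strand and a C/EBP match. The TATA box, the C/EBP match and the GC box farther from the start are shown in capitals in stretches of 30 bases (chr19:38124913-38124942 and chr19:38124822-38124851, minus strand).
Rbp4 131 to 102 bases before the start: gcgTTATGCAAgctcggCCGCCCccccccc
Rbp4 40 to 11 bases before the start: tccccccggagcTATAAAggaccgacggcc
The Retn window (chr8:3655520-3655769, plus strand) held none of the searched letters and is given for contrast with that of Lep. The same was true of Adipoq, Cfd, Itln1 and Adipor2.
Retn promoter: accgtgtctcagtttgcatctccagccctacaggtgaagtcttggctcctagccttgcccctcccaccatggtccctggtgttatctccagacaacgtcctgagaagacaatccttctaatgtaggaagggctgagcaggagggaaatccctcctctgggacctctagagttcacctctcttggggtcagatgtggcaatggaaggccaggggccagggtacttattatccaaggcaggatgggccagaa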

How the data were processed

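Per the file headers, the arrays were quantified with Agilent Feature Extraction 12.0.3.1 (protocol GE1_1200_Jun14), which gave the deposited processed intensity of each spot, background-subtracted and not scaled between arrays. The 75th percentile of intensity was 176 to 184 in Sham and 132 to 165 in DJB, no spot was saturated, and 18 to 25 spots per array with an outlier flag were left out. A table of log2 values that the authors deposited as well, each column of which correlated with its own array at r of at least 0.99934, served as an alternative. The submitters' processing notes name limma. The number of arrays, 3 in each group, limits the precision. The design text describes another experiment and was not used.

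The log2 intensity minus the array's 75th percentile was tested with limma 3.58.1 in R 4.3.3 (lmFit, then eBayes with 2.26 prior degrees of freedom, two-sided, without covariates) and Benjamini-Hochberg adjustment over all tested probes. Adjusted p-values come from this fit where no other is named. Lep minus Adipoq and the levels relative to adipocyte markers were tested by exact permutation of the arrays. The lead probe of a member is its brightest tested symbol-named probe. In the shares over all named genes and in the gene lists, each gene counts by its brightest tested probe of either kind. All members and their probes were named, and of each pathway list every called gene up to 5 per direction; genes that missed the threshold were named for their role after their values had been seen. The 3 genes most like Lep, Adipoq, Retn and Rbp4 over the arrays were also to be named, of which some are not reported here. The members, the 18 gene lists and the motifs were chosen with earlier results of these data known. Replicate numbers did not pair the arrays, the deviations of same-numbered arrays correlating at -0.18, -0.12 and -0.29. Probe positions are those of the array design (mm9); promoters are from RefSeq (GRCm38.p6). Figures used matplotlib 3.10.9 in Python 3.11.15.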

Additional observations from a re-analysis of the deposited data

How the results depend on the processing

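The 3 symbol-named probes called lower became 6 with normexp background correction, 1 without a filter on dim probes and 0 with the slide as a block. They became 0 with the replicate number as a block, a pairing that the arrays did not show. Leaving out single arrays gave 0 to 5, with 0 without Sham-1, Sham-2 or DJB-2, 1 without Sham-3 or DJB-1, and 5 without DJB-3. Quantile or median scaling, the deposited log2 values and a trended prior kept the count at 3, and a filter on all 6 arrays gave 4. Over all probes the count called lower moved from 3137 to 4899 with normexp, 576 without the filter, 619 with the slide block and 0 with the replicate block, and to between 118 (without Sham-1) and 3181 (without DJB-3) when single arrays were left out. No setting called a member probe higher. The Lep probe that missed the threshold was called with normexp (adjusted p = 0.0238), with the filter on all 6 arrays (0.0346) and without DJB-3 (0.0221). Over all its alternatives the Lep difference lay between -3.86 and -1.34. A difference turned above 0 for Lepr probe A_51_P396045 with normexp (0.0396), within slide 2 for Adipor2 probe A_52_P516656 (0.22) and the accession-named Cfd probe (0.06), and, relative to the adipocyte markers, for Cfd (0.60), Rarres2 (0.36), Apln (0.44), Lepr probe A_52_P247900 (0.21) and Adipor2 (0.49). The cause was not tested, except that the last 5 follow from subtracting markers that were themselves lower. Lep minus Adipoq stayed between -1.93 and -1.74 under the other scalings, background correction and deposited values, and between -2.32 and -1.67 without single arrays. With the replicate block its exact p was 0.25, the smallest that 3 pairs of arrays can give. It uses neither a filter nor a moderated variance, so those alternatives were not run.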
